A study of Mus musculus with 11 samples.

Results

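A set of 9 genes that mark the neural lineage, of the 23288 gene symbols of the RNA table, was followed through RNA-seq and ChIP-seq of mouse embryonic stem cells (ESCs). They are the progenitor genes Nes, Pax6, Sox1 and Sox3, the proneural genes Neurog2 and Neurod1, and the neuronal cytoskeleton genes Tubb3, Map2 and Mapt. The set was chosen by reading its FPKM values (fragments per kilobase of transcript, corrected for library size) in control and CBX6-depleted cells, with a higher Nes and a lower Mapt in view. The RNA difference between those groups is therefore given for the 9 genes as a description, with no test. The RNA contrast, not the peaks, named the direction, but the peaks were known from earlier results and are given as counts with no test.

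All cells were E14Tg2A, a wild-type mouse ESC line, grown without feeders in serum and leukemia inhibitory factor. For RNA-seq, ESCs were infected with a lentivirus carrying a control short hairpin RNA (shCtl, 2 libraries) or one against Cbx6 (shCbx6, 2 libraries) and selected with an antibiotic. Which of the available Cbx6 hairpins each library carries is not given in the sources used here. For ChIP-seq, the deposited lists were CBX6 (2 replicates, anti-HA in ESCs whose Cbx6 locus carries a 3×HA tag, a line grown from single sorted cells), CBX7 (1 library) and RING1B (1 library), the last both with antibodies to the untagged proteins. CBX6 and CBX7 are chromobox subunits, and RING1B is the catalytic subunit, of Polycomb repressive complex 1.

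Neural differentiation of ESCs runs from progenitors, which express SOX1, SOX3, PAX6 and the filament protein nestin, through cells switched on by proneural bHLH factors such as NEUROG2 and NEUROD1, to neurons that carry class III β-tubulin and the microtubule-associated proteins MAP2 and tau. In undifferentiated ESCs many genes of developmental transcription factors are held silent by Polycomb complexes, which gather at promoters rich in the dinucleotide CpG. The cytoskeletal genes are used widely in cells that grow processes and are not restricted to neurons.

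Cbx6 itself stood at 17.4 and 14.9 FPKM in shCtl against 9.53 and 5.40 FPKM in shCbx6, 2.16-fold lower on the means, so the second shCbx6 library held less of the targeted RNA than the first. The pluripotency markers were present in all 4 libraries, with a summed level of 2570 and 2770 FPKM for 7 genes in shCtl and 2010 and 1940 FPKM in shCbx6. Their median log2 difference was −0.76, and 6 of 7 were lower in both shCbx6 libraries than in both shCtl libraries, against 24.4% of all genes tested. Of the markers of differentiated neural cells, the highest glial ones were Cnp, at 8.54 to 9.87 FPKM, and Slc1a3, at 4.83 to 6.57 FPKM, and both overlapped between the groups. The 16 mature neuron markers summed to 9.90 to 12.4 FPKM in shCtl against 8.74 to 11.0 FPKM in shCbx6, and the 12 glial markers to 17.6 to 19.7 and 17.7 to 19.4 FPKM. Whether the lower level of pluripotency markers has a part in the values below was not tested.

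Nes, which encodes the intermediate filament protein of neural progenitors, was listed at 0.673 and 0.720 FPKM in shCtl against 1.59 and 3.27 FPKM in shCbx6. Both shCbx6 libraries were above both shCtl libraries, and the second was about as far above the first as the first was above the controls on a fold scale. The means were 0.697 ± 0.0332 and 2.43 ± 1.19 FPKM (SD, n = 2 libraries each), 3.49-fold higher in shCbx6. On the scale of log2(FPKM + 1), used for every log2 difference here and compressing low genes, Nes differed by 0.97 (standard error 0.280). Each standard error here comes from the limma fit, which draws a gene's spread towards that of all genes. The pooled SD of Nes within the groups was 0.361 on this scale. The ratio was 2.28 without shCbx6 replicate 2 and 4.69 without shCbx6 replicate 1. In bulk RNA a change in the number of Nes-positive cells and a change in RNA per cell cannot be told apart, here and for the other genes.

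Pax6, a paired-box factor of the developing nervous system and eye, stood at 1.47 and 0.569 FPKM in shCtl against 5.51 and 1.82 FPKM in shCbx6. The groups did not overlap, but the spread inside each was wide: the lower shCbx6 library was 1.82 FPKM and the higher shCtl library 1.47 FPKM. The means were 1.02 ± 0.637 and 3.66 ± 2.61 FPKM (SD, n = 2 each), 3.59-fold higher, with a log2 difference of 1.12 (standard error 0.452). Its own pooled SD within the groups was larger than that standard error, 0.688 on the log2 scale. Leaving out 1 library moved the ratio from 1.78 (without shCbx6 replicate 1) to 6.44 (without shCtl replicate 1), with 2.49 without shCtl replicate 2 and 5.41 without shCbx6 replicate 2. Unlike Nes, Pax6 was highest in the first shCbx6 library, so the pair of genes with higher RNA did not share an order of libraries.

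Sox1, a SOXB1 factor and an early marker of neuroectoderm, went the other way. It was listed at 2.14 and 2.40 FPKM in shCtl against 0.767 and 0.287 FPKM in shCbx6, 4.31-fold lower on the means (log2 difference −1.12, standard error 0.227). The ratio was 7.92 without shCbx6 replicate 1 and 2.96 without shCbx6 replicate 2. Sox3, a SOXB1 factor of the same group on the X chromosome, was at 0.925 and 1.54 FPKM in shCtl against 0.696 and 0.720 FPKM in shCbx6. Its groups lay apart by a small margin, and its means differed by 1.74-fold (log2 difference −0.37, standard error 0.220). Sox3 passed the limit of 1 FPKM through the second shCtl library, and without that library its mean in shCtl was 0.925 FPKM and the ratio 1.31.

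Of the proneural genes, Neurog2, a bHLH factor that starts neuronal differentiation, was listed at exactly 0 FPKM in all 4 libraries. The same held for 4691 symbols of the table, and an exact 0 in an FPKM table can be a failed estimate as well as an absent transcript. Neurod1, a bHLH factor that acts later in the neuronal programme, was at 0.593 and 0.586 FPKM in shCtl against 0.883 and 1.24 FPKM in shCbx6. That is 1.80-fold higher on the means, all of it near the limit of 1 FPKM. Without the second shCbx6 library Neurod1 stood at 0.883 FPKM and was no longer above the limit.

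Mapt, the gene of the axonal microtubule-associated protein tau, had the largest difference of the 9. It was listed at 6.94 and 7.44 FPKM in shCtl against 0.645 and 0.914 FPKM in shCbx6. The spread inside each group was below 1 FPKM and the gap between the groups was many times that spread. The means of 7.19 ± 0.347 and 0.780 ± 0.190 FPKM (SD, n = 2 each) differed 9.22-fold (log2 difference −2.21, standard error 0.165), and the ratio stayed between 7.87 and 11.1 when any 1 library was left out.

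Tubb3, the gene of class III β-tubulin, widely used as a neuronal marker, was the most abundant of the 9 per kilobase, at 35.2 and 29.1 FPKM in shCtl against 25.4 and 21.0 FPKM in shCbx6. The groups lay apart, with a ratio of 1.39 and a log2 difference of −0.45 (standard error 0.171). Without shCtl replicate 2 or without shCbx6 replicate 1 the ratio was 1.52 or 1.53, past the 1.5-fold limit. Map2, the gene of the dendritic microtubule-associated protein, was at 2.51 and 1.78 FPKM in shCtl against 2.28 and 1.20 FPKM in shCbx6. Its groups overlapped, its log2 difference was −0.22 (standard error 0.260), and the sign turned to 0.07 without shCbx6 replicate 2, while the ratio reached 1.79 without shCbx6 replicate 1.

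**Figure D1:**
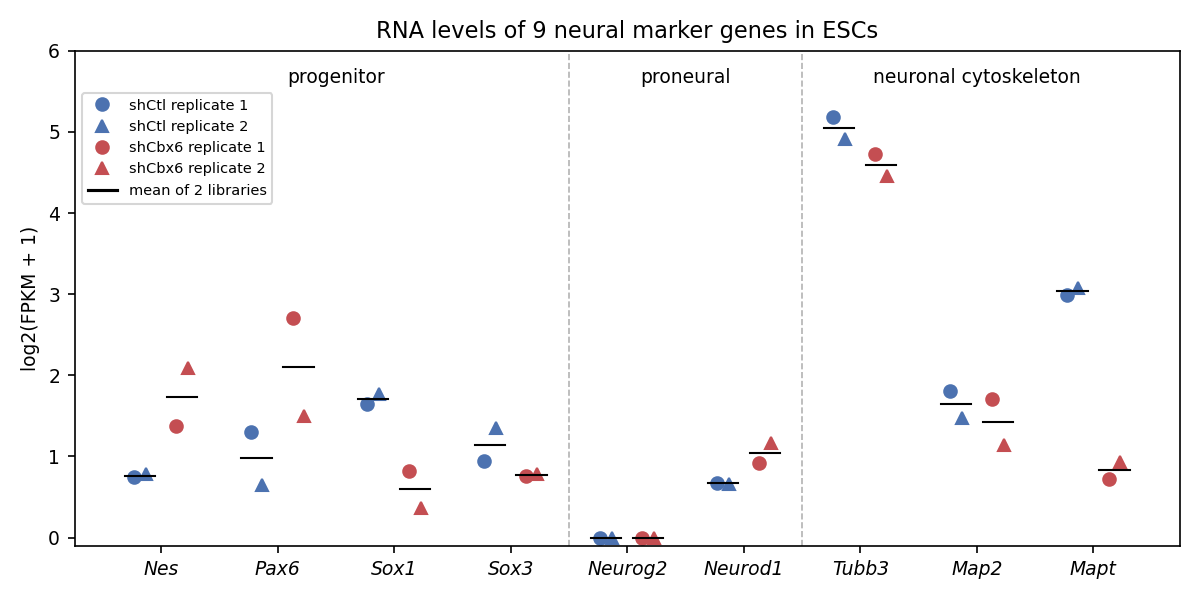
RNA level of each neural marker gene as log2(FPKM + 1), one point per library (circles replicate 1, triangles replicate 2; blue shCtl, red shCbx6) and a black line at the mean of the 2 libraries. Mapt shows the widest gap between the groups, Nes and Pax6 lie higher and Sox1 lower in shCbx6, Map2 overlaps, and Neurog2 is listed at 0 throughout.

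Grouped by role, the directions did not divide between progenitor and neuronal genes. Among the progenitor genes 2 were higher (Nes, Pax6) and 2 lower (Sox1, Sox3). The proneural gene above 1 FPKM, Neurod1, was higher. Of the 3 cytoskeleton genes none was higher, 2 were lower with no overlap of the groups (Tubb3, Mapt) and 1 overlapped (Map2). The heading of a rising Nes and a falling Mapt thus describes those genes and not the classes they stand for.

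Counted together, 8 of the 9 genes passed the filter of a mean of 1 FPKM in either group. Nes and Neurod1 passed only through shCbx6, and Sox1, Sox3 and Mapt were under 1 FPKM in shCbx6, so these had to differ in the direction they show. Of the 8, 3 were higher and 4 lower in shCbx6 with no overlap of the groups, against 18.9% higher and 24.4% lower among 11592 genes tested. At a ratio of means of 1.5, the study's limit, 3 were higher and 3 lower, against 7.63% and 6.56% of genes tested. Since these counts rest on the contrast that chose the genes, nothing is read from them. Limma, with an adjusted p under 0.05, called 0.0431% of genes higher and 0.0518% lower in shCbx6. The fit covered the 8 genes with the rest, but since they were chosen on this contrast their own p-values are not given. The median log2 difference was −0.29 over the 8 genes and −0.012 over all genes tested.

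The order of the 9 genes by level changed between the groups. In shCtl, Tubb3 (32.1 FPKM) and Mapt (7.19 FPKM) came first, followed by Sox1 (2.27 FPKM) and Map2 (2.15 FPKM), which overlapped. Sox3 (1.23 FPKM), Pax6 (1.02 FPKM) and Nes (0.697 FPKM) followed, each overlapping its neighbour, ahead of Neurod1 (0.590 FPKM) and Neurog2. In shCbx6, Tubb3 (23.2 FPKM) still led and Pax6 (3.66 FPKM) and Nes (2.43 FPKM) came next, then Map2 (1.74 FPKM), Neurod1 (1.06 FPKM), Mapt (0.780 FPKM), Sox3 (0.708 FPKM) and Sox1 (0.527 FPKM). From Pax6 to Sox1 each gene overlapped its neighbour in this order, and Neurog2 stood apart at 0. Mapt therefore went from the second place to one that its 2 libraries do not separate from Neurod1 or Sox3.

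Reads of some of these genes may be shared with an overlapping gene, since the strand of the libraries is not given in the sources used here. Pax6 runs against Elp4 and Pax6os1, and Mapt against Gm11659. Elp4 was at 4.79 and 5.66 FPKM in shCtl against 4.56 and 5.78 FPKM in shCbx6, and Pax6os1 was listed at 0. Neurod1 lies inside Cerkl on the same strand, listed at 0.0345 to 0.175 FPKM, and Sox1 inside Gm5607, listed at 0.220 to 0.409 FPKM. Tubb3 lies inside Gm20388 on the same strand, with no value given here. The groups overlapped for Elp4 and Gm5607, and Cerkl was lower in shCbx6. The part of shared reads in the values was not tested.

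To place the 9 genes among their kind, lists of other neural genes were read from the same table. None of their members passed limma at an adjusted p under 0.05 in the main fit, with 1352 of 11592 genes at an unadjusted p under 0.05 (593 higher, 759 lower). That outcome depended on the model: with the replicate number as a block, 6 of 48 tested members were called higher and 1 lower, as given below. Of 32 further neural progenitor genes, 11 were tested, and 4 were higher and 2 lower at an unadjusted p under 0.05, with a median log2 difference of 0.13. The largest positive difference was that of Otx2, a homeobox factor of the anterior epiblast and brain, at 3.42 and 4.65 FPKM in shCtl against 15.3 and 30.4 FPKM in shCbx6 (log2 difference 2.18, adjusted p = 0.117). Pou3f1, a POU factor of the epiblast and early neural plate, was at 0.925 and 0.977 FPKM in shCtl against 4.55 and 10.4 FPKM in shCbx6 (log2 difference 2.02, adjusted p = 0.143). With a mean of 0.951 FPKM in shCtl, Pou3f1 passed the filter of 1 FPKM only through shCbx6, so it had to be higher there. At the other end, the Notch effector Hes1 had a log2 difference of −1.14 (adjusted p = 0.274) and Gbx2, a homeobox factor also used in naive ESCs, of −0.78 (adjusted p = 0.201). These progenitor genes spread in both directions, as Nes and Pax6 against Sox1 and Sox3 did.

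Other proneural and neuronal transcription factors were mostly below the limit. Of 25, 3 passed 1 FPKM and 7 were listed at 0 in all 4 libraries. Hes6, a bHLH factor that favours neurogenesis, was at 7.16 and 7.99 FPKM in shCtl against 12.0 and 11.1 FPKM in shCbx6 (log2 difference 0.55, adjusted p = 0.249). Pou4f1 and Ebf1, factors of sensory and other neurons, had log2 differences of −0.34 and −0.10 with overlapping groups. In the whole table, 11592 of 23288 symbols passed the limit and 4691 were listed at 0.

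Of 24 further neuronal cytoskeleton genes, 18 were tested, 3 of them higher and 3 lower at an unadjusted p under 0.05, with a median log2 difference of 0.10. The neurofilament gene Nefl was at 6.81 and 6.49 FPKM in shCtl against 18.7 and 19.8 FPKM in shCbx6 (log2 difference 1.41, adjusted p = 0.0638). Ina, the gene of the filament protein α-internexin, was at 8.13 and 7.72 FPKM in shCtl against 20.6 and 21.4 FPKM in shCbx6 (log2 difference 1.30, adjusted p = 0.0744). In both the replicates lay close together and the groups far apart, without passing the adjusted threshold in the main fit. Both passed it in the fit with a replicate block. Stmn3, a tubulin-binding stathmin, was at 13.9 FPKM in both shCtl libraries and at 9.87 and 2.56 FPKM in shCbx6 (log2 difference −1.26, adjusted p = 0.435). The β-tubulin gene Tubb2b was at 134 and 140 FPKM in shCtl against 95.6 and 73.5 FPKM in shCbx6 (log2 difference −0.70, adjusted p = 0.255). The list as a whole did not share the direction of Mapt.

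Of the mature neuron markers 3 of 16 were tested, and the adhesion gene Ncam1 had a log2 difference of −0.83 (adjusted p = 0.324), the RNA-binding protein gene Elavl3 of −0.24 and the synapsin gene Syn1 of 0.08. Of the glial markers 4 of 12 were tested, with log2 differences from −0.39 (Aldh1l1) over 0.05 (Cnp) to 0.10 (Slc1a3). REST is a repressor that keeps neuronal genes silent outside neurons. All 9 genes of REST and its corepressors were tested, with a median log2 difference of −0.16 and a range from −0.49 (Rcor3) over −0.37 (Hdac2) and 0.13 (Hdac1) to 0.34 (Ehmt2). At an unadjusted p under 0.05, 2 of these 9 were lower and none higher, and none passed the adjusted threshold.

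**Figure D2:**
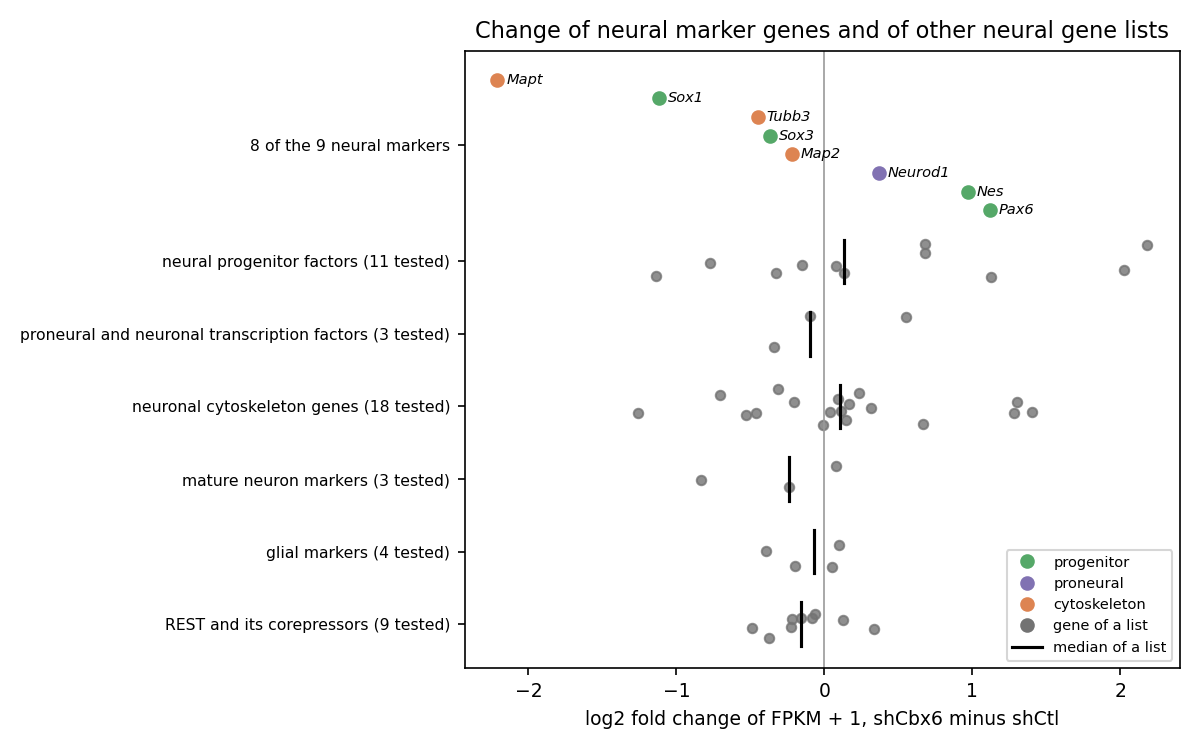
Log2 difference of FPKM + 1 between shCbx6 and shCtl (2 libraries each) for 8 of the 9 neural markers, coloured by role, and for the tested genes of the other neural lists in grey, with a black line at each list's median. Mapt at −2.21 lies below every list gene shown, while Nes at 0.97 and Pax6 at 1.12 lie inside the range of the progenitor list, which reaches 2.18.

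For Nes and Mapt the genes with the nearest profile over the 4 libraries were sought by Euclidean distance of log2(FPKM + 1) values centred on their mean. Nearest to Nes were Efs (distance 0.09), Fabp5 (0.107) and Nmi (0.115). Fabp5, a fatty-acid-binding protein gene, was at 23.7 and 22.8 FPKM in shCtl against 37.6 and 64.4 FPKM in shCbx6. Nearest to Mapt were Emp1 (0.223), Nkx6-3 (0.53) and Khdc3 (0.562). Emp1, an epithelial membrane protein gene, was at 20.1 and 24.7 FPKM in shCtl against 4.38 and 4.93 FPKM in shCbx6. With 4 libraries, such likeness mainly restates the size of the difference between the groups, and the nearest gene to Mapt was farther away than all 3 nearest to Nes.

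For the ChIP-seq lists, a gene was counted when a deposited peak touched the stretch from 2.5 kb upstream of its start site to its transcription end, the rule of the study. All 9 genes had a peak in CBX6 replicate 1, a list of 21865 peaks in which 56.8% of 21886 genes have one. In CBX6 replicate 2, CBX7 and RING1B, 7 of the 9 had a peak, against 16.6%, 17.9% and 16.0% of genes. The same 7 were in all 4 lists, against 11.5% of genes. The genes without a peak in those 3 lists were Tubb3 and Map2. By role, 4 of 4 progenitor genes and 2 of 2 proneural genes were in all 4 lists, and 1 of 3 cytoskeleton genes, Mapt.

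**Figure D3:**
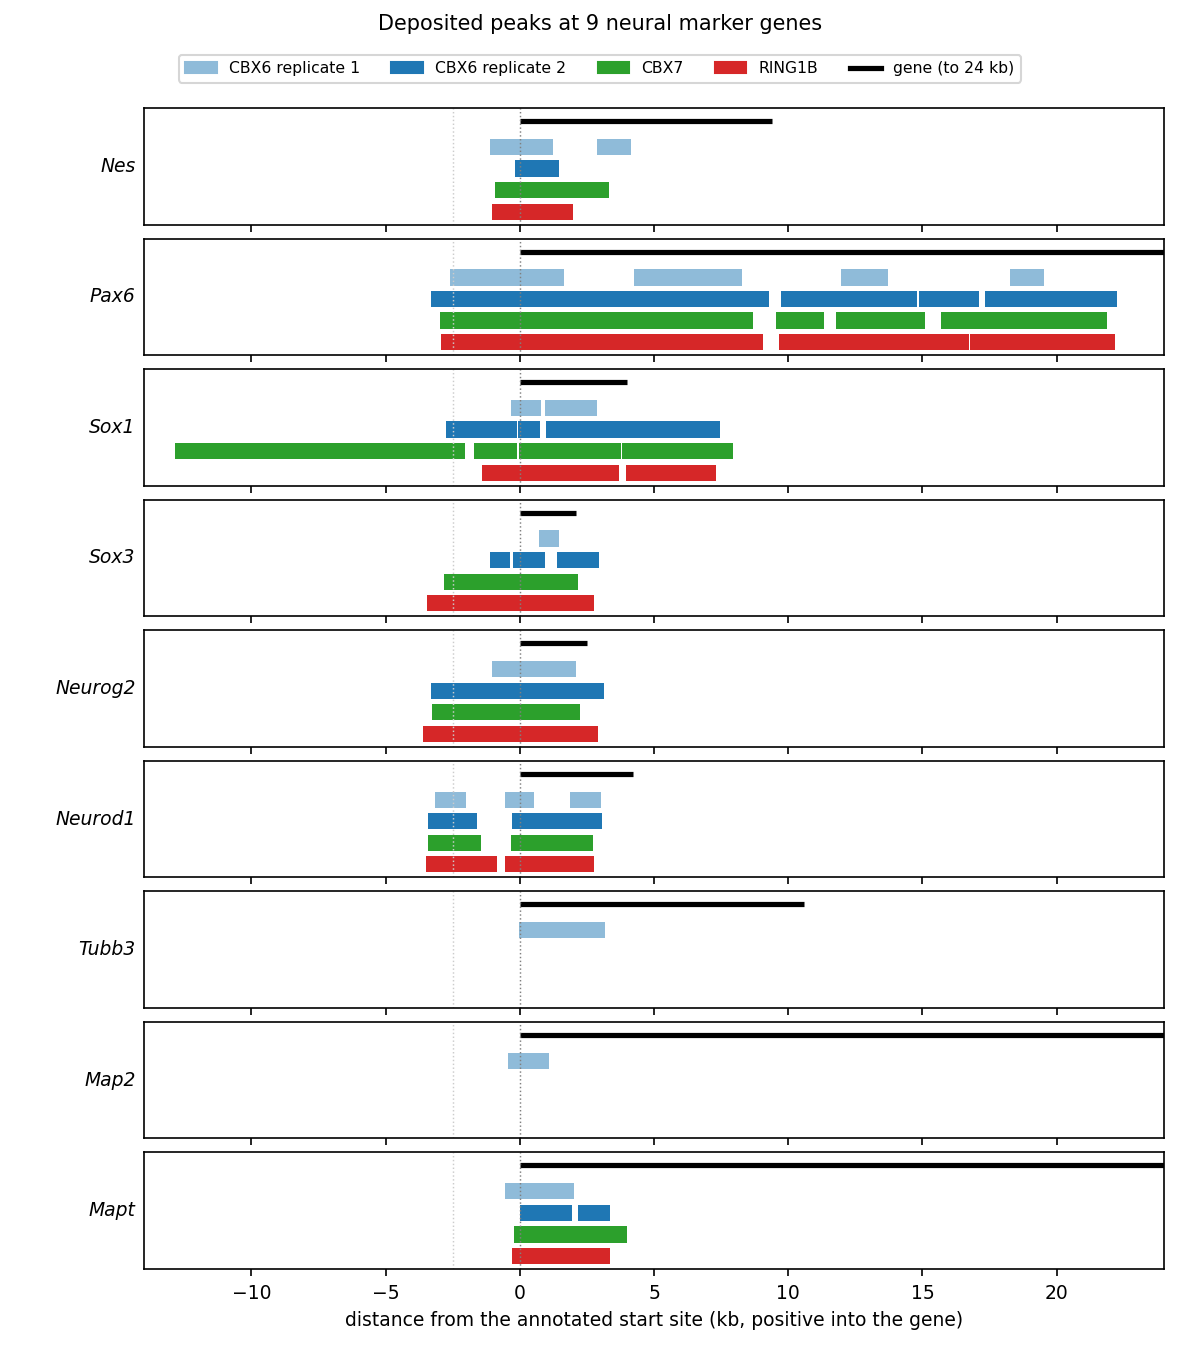
Deposited peaks at the 9 genes, drawn to scale as bars by distance from the annotated start site in kb (rows of each panel: CBX6 replicate 1, CBX6 replicate 2, CBX7, RING1B), with the gene as a black line and a dotted line at 2.5 kb upstream. Pax6 and Sox1 lie under several wide bars, Tubb3 and Map2 have 1 CBX6 replicate 1 bar each, and 5 further CBX6 replicate 1 peaks of Mapt lie beyond the right edge, 54633 bp or more from its start.

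Sequences around the start sites are shown for Nes and for pairs of genes that match in CpG count but not in peaks. They were taken from RefSeq promoters of GRCm38.p6, 250 bases before to 50 after the start, and each was found exactly once in mm9, whose coordinates are given. RefSeq promoters were matched for 7 of the 9 genes. Capitals mark each CpG, a motif that reads the same on both strands. Over 32851 promoters of this length the median was 7 CpG, with quartiles of 3 and 20. The Nes promoter (chr3:87774765-87775064, plus strand) held 18, a number reached by 29.7% of promoters. Neurod1 (chr2:79296744-79297043, minus strand) and Tubb3 (chr8:125935203-125935502, plus strand) both held 26, reached by 16.9% of promoters. Sox1 (chr8:12395269-12395568, plus strand) and Map2 (chr1:66221653-66221952, plus strand) both held 37, reached by 5.6%.
Nes: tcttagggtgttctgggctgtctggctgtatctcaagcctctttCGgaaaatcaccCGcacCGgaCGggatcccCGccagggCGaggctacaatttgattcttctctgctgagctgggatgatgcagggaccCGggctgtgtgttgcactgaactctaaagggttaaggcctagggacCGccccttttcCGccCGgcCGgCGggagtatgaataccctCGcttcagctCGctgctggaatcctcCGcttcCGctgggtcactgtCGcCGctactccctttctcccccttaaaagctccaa
Neurod1: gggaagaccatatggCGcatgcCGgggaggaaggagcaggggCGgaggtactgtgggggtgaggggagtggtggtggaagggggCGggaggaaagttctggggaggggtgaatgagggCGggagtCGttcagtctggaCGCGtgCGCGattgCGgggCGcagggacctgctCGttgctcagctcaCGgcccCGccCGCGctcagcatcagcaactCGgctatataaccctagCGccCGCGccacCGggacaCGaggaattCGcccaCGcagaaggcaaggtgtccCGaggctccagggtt
Tubb3: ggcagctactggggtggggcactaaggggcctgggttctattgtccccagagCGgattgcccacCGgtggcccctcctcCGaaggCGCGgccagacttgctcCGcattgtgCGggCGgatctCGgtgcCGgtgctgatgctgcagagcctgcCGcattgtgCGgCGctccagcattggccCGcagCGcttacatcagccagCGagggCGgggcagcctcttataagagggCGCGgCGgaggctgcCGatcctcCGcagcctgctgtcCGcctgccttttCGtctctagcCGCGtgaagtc
Sox1: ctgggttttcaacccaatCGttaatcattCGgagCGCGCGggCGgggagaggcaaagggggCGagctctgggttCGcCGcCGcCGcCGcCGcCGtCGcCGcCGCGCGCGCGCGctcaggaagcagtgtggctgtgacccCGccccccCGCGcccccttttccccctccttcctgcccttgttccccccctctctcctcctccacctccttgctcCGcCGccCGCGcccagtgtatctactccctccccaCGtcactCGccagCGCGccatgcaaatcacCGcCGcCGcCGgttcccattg
Map2: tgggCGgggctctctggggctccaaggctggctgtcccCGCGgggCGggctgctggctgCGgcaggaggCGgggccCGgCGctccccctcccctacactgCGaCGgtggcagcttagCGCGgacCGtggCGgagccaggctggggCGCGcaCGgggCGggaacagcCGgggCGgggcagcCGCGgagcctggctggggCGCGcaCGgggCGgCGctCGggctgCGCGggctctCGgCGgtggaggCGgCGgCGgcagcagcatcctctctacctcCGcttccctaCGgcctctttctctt

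Neurod1 and Sox1 had CBX6 replicate 2, CBX7 and RING1B peaks that overlapped these windows, and Tubb3 and Map2, with the same CpG counts, had none within 102.9 kb and 292.3 kb of their start sites. Pax6 held 18 and 16 CpG at its 2 listed start sites. Neurog2, covered by a peak in all 4 lists, held 10, a number that 43.5% of promoters reach. The pairs were picked for their unlike peaks, and no promoter was matched for Mapt or Sox3. No relation between the CpG count of the 300 bases and the peaks is therefore read from them.

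Nes (mm9, chromosome 3, 87775000 to 87784373) had peaks over its start site in all 4 lists. The CBX7 peak was the widest, 4217 bp from 907 bp before to 3309 bp after the start, and the RING1B peak measured 3007 bp. CBX6 replicate 1 held a further peak from 2858 to 4148 bp into the gene, which was centred in an intron. A neural enhancer of Nes is known from an intron of the gene. The highest score was 1336.7 for CBX7 and 925.0 for RING1B, and the start-site peak of CBX6 replicate 1 scored 180.6. A score here is the peak caller's measure, which rises as the p-value of the peak falls and is not comparable between libraries.

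Pax6 (chromosome 2, 105509053 to 105543317) had 15 peaks summed over the 4 lists, the most of the 9 genes. Peaks of different lists overlap, so such sums do not count separate sites. Its start site lay under a CBX6 replicate 2 peak of 12574 bp, a CBX7 peak of 11658 bp and a RING1B peak of 12006 bp. Peaks that wide made up 0.61%, 1.28% and 1.48% of their lists. Further peaks followed to 22247 bp into the gene. Its highest CBX6 replicate 1 peak scored 522.3, a value that 0.59% of that list reach. A chain of wide peaks over start and gene body was thus present at a gene with 1.02 FPKM in shCtl.

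Sox1 (chromosome 8, 12395519 to 12399555, placed by the promoter match and the RefSeq gene length) had 12 peaks summed over the 4 lists. A CBX7 peak of 10771 bp lay upstream, ending 2059 bp before the start. RING1B had 1 peak of 5095 bp across the start and 1 that began near the end of the gene. Sox3 (chromosome X, 58144545 to 58146605) was covered end to end by a RING1B peak of 6221 bp, and its CBX7 peak of 5002 bp ran past both ends as well. Its CBX6 peaks measured 753 bp in replicate 1, with a score of 69.2 that 72.7% of that list reach, and 762 to 1586 bp in replicate 2. Sox1 and Sox3, the progenitor genes with lower RNA, were thus marked by the same 4 lists as Nes and Pax6.

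Neurog2 (chromosome 3, 127336054 to 127338549) had 1 peak in each list, and each covered the start site. They measured 3157 and 6470 bp for the CBX6 replicates, 5541 bp for CBX7 and 6518 bp for RING1B. The scores were 553.0 in CBX6 replicate 1, reached by 0.48% of that list, and 3100.0 in the other lists. The value 3100.0 recurs, at 134, 403 and 507 peaks of CBX6 replicate 2, CBX7 and RING1B. Neurog2, listed at 0 FPKM, thus carried the highest CBX6 scores of the 9 genes in both replicates. Neurod1 (chromosome 2, 79292678 to 79296908) had 9 peaks summed over the 4 lists, over its start and in a second group upstream. Its scores were lower, from 83.9 to 123.6 in CBX6 replicate 1 and 389.7 at most in RING1B.

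Mapt (chromosome 11, 104092704 to 104193404) had a peak at its start in all 4 lists. CBX6 replicate 1 ran from 558 bp before to 2016 bp after the start and scored 356.1, reached by 2.31% of that list. CBX6 replicate 2 held peaks from 4 to 1960 bp and from 2155 to 3369 bp into the gene. The CBX7 peak measured 4185 bp with a score of 1245.8 and the RING1B peak 3637 bp with a score of 1545.9. All of these lay in the first few kilobases, beside the start. CBX6 replicate 1 held 5 more peaks, from 54633 to 81171 bp into the gene, and none of them overlapped a peak of another list.

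Tubb3 (chromosome 8, 125935324 to 125945915) had 1 CBX6 replicate 1 peak, of 3236 bp from 42 bp before to 3193 bp after the start. Its score of 230.9 was reached by 8.77% of that list, above most peaks there. The nearest peak to the start was 102.9 kb away for CBX6 replicate 2, 292.7 kb for CBX7 and 292.8 kb for RING1B. Map2 (chromosome 1, 66221847 to 66489157) had 1 CBX6 replicate 1 peak of 1547 bp with a score of 117.3, and its nearest others were 292.3 kb, 642.4 kb and 2900.2 kb away. At both genes the CBX6 replicates therefore did not give the same answer. Of the 21 CBX6 replicate 1 peaks at the 9 genes, 14 overlapped a peak of another list, against 23.0% of that whole list. All 17 CBX6 replicate 2, 14 CBX7 and 11 RING1B peaks did, against 92.1%, 92.9% and 95.9%.

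How often a gene has such peaks varied with its RNA level in shCtl. Peaks in all 4 lists were found at 16.7% of 10955 genes under 1 FPKM and at 15.1% of 3045 genes from 1 to 5 FPKM. The shares were 4.45% of 4004 genes from 5 to 20 FPKM and 1.11% of 3882 genes at 20 FPKM or more. The 6 progenitor and proneural genes lay in the first 2 of these classes. Mapt, at 7.19 FPKM, was 1 of the 178 genes of its class with peaks in all 4 lists, and Tubb3, at 32.1 FPKM, lay in the class where 43 genes have them. Map2, at 2.15 FPKM, shared its class with Sox1, which had 12 peaks over the 4 lists against its 1.

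The RNA difference of Mapt can be set beside that of other genes with peaks in all 4 lists. Of 815 such genes tested, 27.4% were at least 1.5-fold higher and 15.1% lower in shCbx6, against 6.01% and 5.75% of 10515 genes without a peak in at least 1 list. Of the 221 with 5 FPKM or more in shCtl, 11.8% were higher and 12.7% lower. Mapt had the second lowest log2 difference among both the 815 and the 221 genes, which restates the choice of Mapt for its low value in these libraries. Genes under 1 FPKM in shCtl entered the 815 only where they were higher in shCbx6. Nes, Pax6, Sox1, Sox3 and Neurod1 belong to the 815 too, and lie on both sides of 0.

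In the larger neural lists, peaks of CBX6 replicate 2, CBX7 and RING1B were more frequent at progenitor and transcription factor genes than at cytoskeleton genes, given here as counts with no test of the difference. The lists also differ in RNA level, with which peaks vary, and role and level were not separated. A mean of 1 FPKM was passed by 11 of 32 progenitor genes, 3 of 25 transcription factors and 18 of 24 cytoskeleton genes. Of 32 further progenitor genes, 26 had a peak in all 4 lists, of 25 proneural and neuronal transcription factors 18, and of 24 cytoskeleton genes 8. In CBX6 replicate 2 the shares were 81.2%, 80.0% and 37.5%, and in RING1B 84.4%, 80.0% and 45.8%. The mature neuron markers lay between, with 7 of 16 in all 4 lists, and 3 of 12 glial markers and 0 of 9 genes of REST and its corepressors were. In CBX6 replicate 1 that order did not hold, with 93.8% of progenitor genes, 80.0% of transcription factors and 83.3% of cytoskeleton genes. Of the genes named above from the progenitor, transcription factor and cytoskeleton lists, Otx2, Pou3f1, Gbx2, Pou4f1, Ebf1, Nefl and Ina had peaks in all 4 lists. Hes6 had them in 3, and Hes1, Stmn3 and Tubb2b in 1. The mature neuron marker Ncam1 had them in all 4. So a cytoskeleton gene with peaks could be lower, as Mapt was, or higher, as Nefl and Ina were by their FPKM values.

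**Figure D4:**
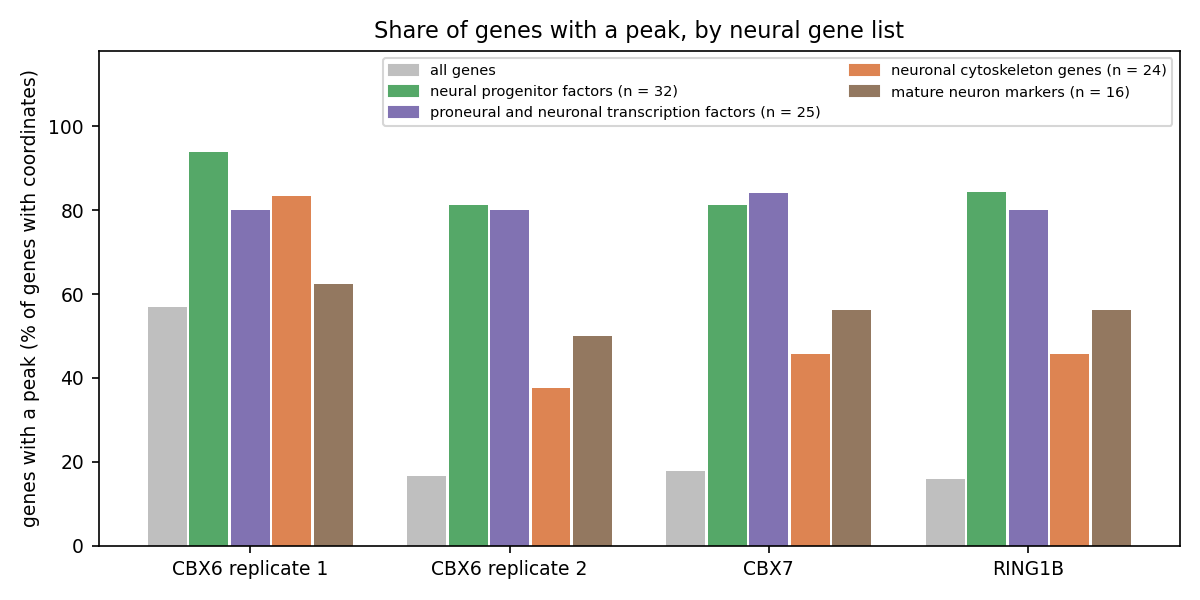
Percent of genes with a peak between 2.5 kb upstream and the transcription end in each of the 4 lists, for all 21886 genes (grey) and for 4 neural gene lists that leave out the 9 markers (n in the legend is the genes with coordinates). In CBX6 replicate 2, CBX7 and RING1B the progenitor and transcription factor lists stand at 80.0% or more and the cytoskeleton list at 37.5% to 45.8%, with all genes at 16.0% to 17.9%.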

How the data were processed

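RNA-seq (2 shCtl and 2 shCbx6 libraries) and 4 ChIP-seq peak lists were used, of 11 samples. The authors aligned RNA reads to mm9 with TopHat (1 place per read) and deposited Cufflinks FPKM values for 23290 entries, 23288 of them distinct symbols (25 look like dates). Depth is not stored in FPKM. From the steps of low values it was 0.956 to 1.13 relative to the first shCtl library. The authors aligned ChIP reads with Bowtie and called peaks per sample with MACS (shift size 75 bp), and the deposited score of each peak was used as given. Tool versions are not given in the sources used here. The ChIP control samples (parental ESCs for HA, IgG for CBX7 and RING1B) were not analysed here.

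Genes with a mean of 1 FPKM in either group (11592) were fitted with limma 3.58.1 (trend) in R 4.3.3 on log2(FPKM + 1), with Benjamini-Hochberg adjustment. The fit was also run on simulated data, and its outcome there is not reported here. No source states that replicates were separate cultures, so p-values measure the spread between libraries only. Gene positions came from the GENCODE mm9 annotation, by name (21149 symbols) or RefSeq synonym (736). Sox1 was placed by its promoter. Peaks touching a gene by 1 bp from 2.5 kb upstream to its end were counted. The fit covered 8 of the 9 genes with the rest, but no p-value is given for them, and the other lists were described by counts. Named were the 9 genes, the 3 nearest profiles of Nes and Mapt, and of each neural list the 2 largest differences in each direction (1 glial gene is not reported here). The members and lists were chosen with earlier results of these data known.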

Additional observations from a re-analysis of the deposited data

How the results depend on the processing

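With no filter on low FPKM, 3739 genes were 1.5-fold higher and 2357 lower, and limma called 20 lower. With a pseudocount of 0.1 limma called 11 higher. Leaving out 1 library gave 632 to 1414 genes 1.5-fold higher, 850 to 1179 lower, 5 to 267 limma calls higher and 8 to 131 lower. The highest of each came without shCbx6 replicate 1, where the remaining shCbx6 library is assumed to vary like the shCtl libraries. Limma calls were 10 higher and 12 lower without shCtl replicate 1, 14 lower without shCtl replicate 2, and 27 higher without shCbx6 replicate 2. With the replicate block limma called 183 higher and 205 lower, among them 7 of 48 tested genes of the neural lists (higher: Otx2, Zic2, Pou3f1, Nefl, Ina and Kif1a; lower: Gbx2). The libraries share only a number, with a correlation of 0.266 between the deviations of same-numbered libraries over genes. The cause of these moves was not tested. Of the log2 differences of the 9 genes, that of Map2 changed sign, to 0.07 without shCbx6 replicate 2. Mapt ranged from −3.07 to −2.10, Nes from 0.61 to 1.58, Pax6 from 0.52 to 1.73 and Sox1 from −2.03 to −0.89. Restricting peaks to a score of 100 or more left 8 of 9 genes with a CBX6 replicate 1 peak, without Sox3. With 2 libraries a group and levels near 1 FPKM, the differences of Sox3, Neurod1 and Map2 rest on small values.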

Other observations

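Genes of intermediate filaments and of microtubules were set side by side after their values had been seen. Of 8 intermediate filament genes 6 were tested, and of these Nes, Nefl and Ina were at least 1.5-fold higher in shCbx6, against 7.63% of all genes tested, and Nes was itself chosen for being higher. Nefm (0.200 and 0.138 FPKM in shCtl, 0.219 and 0.487 FPKM in shCbx6) and Synm (0.183 and 0.177 FPKM, then 0.297 and 0.551 FPKM) were under 1 FPKM and higher in both shCbx6 libraries. Nefh and Prph overlapped, at 6.16 and 6.52 against 6.03 and 7.94 FPKM and at 2.48 and 1.81 against 1.76 and 2.48 FPKM. Vim, the vimentin gene, was lower, at 53.3 and 43.9 against 34.9 and 42.0 FPKM. Of 14 microtubule genes 12 were tested, and of these Mapt, Tubb2b and Stmn3 were at least 1.5-fold lower, against 6.56% of all genes tested, and Mapt was itself chosen for being lower. Map1a, Map1b, Map6 and Stmn2 overlapped between the groups, with log2 differences of 0.31, 0.10, 0.17 and 0.23, and Dcx was at 0.0102 FPKM or less. Stmn4, also under 1 FPKM, was higher in both shCbx6 libraries, at 0.0307 and 0.365 FPKM against 0 and 0.0290 FPKM. Tubb2a was at 63.7 and 64.7 FPKM in shCtl against 48.6 and 40.4 FPKM in shCbx6, whereas Tuba1a was at 484 and 492 and then 500 and 584 FPKM. Stmn1 was lower with no overlap of the groups, at 618 and 697 FPKM in shCtl against 557 and 501 FPKM in shCbx6.

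The marker lists of other cell types are given as sums. The 6 mesoderm markers summed to 2.16 to 3.06 FPKM in shCtl against 2.74 to 3.53 FPKM in shCbx6, the largest part of it Eomes, while T was at 0.0984 and 0.0324 against 0.446 and 0.771 FPKM. The 7 endoderm markers summed to 11.1 to 11.9 and 4.59 to 4.68 FPKM. Most of the shCtl sum was Lama1, at 9.95 and 9.29 FPKM in shCtl against 2.90 and 2.04 FPKM in shCbx6. The rest did not share a direction: Dab2, Sox17 and Gata6 were higher in both shCbx6 libraries, Sox7 and Foxa2 lower, and Gata4 overlapped. The 6 trophectoderm markers summed to 0.784 to 1.45 and 1.65 to 5.69 FPKM, with Tpbpa at 0. Hand1 was at 0.0535 and 0.0176 FPKM in shCtl against 0.205 and 1.80 FPKM in shCbx6. Ascl2 overlapped, at 0.601 and 1.21 against 1.05 and 2.99 FPKM. Cdx2, Elf5 and Gcm1, under 1 FPKM throughout, were higher in both shCbx6 libraries. The 5 neural crest markers summed to 16.1 to 17.3 and 11.9 to 15.6 FPKM, nearly all of it Foxd3, and the 7 fibroblast markers to 2.29 to 2.32 and 1.71 to 5.39 FPKM. The second shCbx6 library, in which Nes was highest, was also the highest in the mesoderm, trophectoderm and fibroblast sums. The part of these cells in the values of Nes was not tested.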
